A study of Mus musculus with 39 samples.

Results

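Counts of 8 imprinted genes with roles in muscle growth were followed through differentiation of mouse C2C12 cells with and without filamin C: H19, Meg3, Rian, Mirg, Dlk1, Peg3, Plagl1 and Grb10. They were chosen by name, for their imprinting and their known place in muscle growth, but with earlier results of these data known. Of the 8 genes, 7 have a row among the 29980 genes of the count table, 4 have any count, and 3 (H19, Peg3 and Grb10) passed the filter on low counts and were tested. Rian was not analysed here.

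C2C12 is an established line of mouse myoblasts, muscle precursor cells that stop dividing and fuse into multinucleated myotubes when serum is reduced. Wild-type cells (WT) were compared with cells edited by CRISPR/Cas9 in the first exon of Flnc (KO), the gene of filamin C, an actin crosslinker of muscle. Day 0 cells grew in 10% fetal bovine serum, and cells of days 1, 2, 4 and 6 had been in 2% horse serum for that time. There were 4 libraries in each of 9 groups and 3 in KO day 2, and replicates are numbered 1, 3, 4 and 5. A column of the table named for replicate 4 of KO day 2 matches no labelled sample and was not used, so all KO day 2 values rest on replicates 1, 3 and 5. Both genotypes are C2C12 cells, and the labels describe the edited cells as one FlncKO population without saying whether they are 1 clone. A difference between KO and WT is therefore a difference between these cell populations, and clonal differences cannot be told apart from the loss of Flnc. The labels do not say that replicates are separate cultures, so each p-value measures only the spread between these libraries.

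An imprinted gene is read mostly from the copy inherited from one parent, and many such genes set the growth of the embryo, with paternally expressed genes often promoting and maternally expressed genes often limiting it. H19 is a maternally expressed long noncoding RNA that shares enhancers with the paternally expressed growth factor gene Igf2 and carries the microRNA miR-675 in its first exon. Meg3, Rian and Mirg are noncoding RNAs of the maternal copy of one large domain, hosts of many microRNAs and small nucleolar RNAs, and Dlk1 is the paternally expressed ligand-like protein of the same domain. Peg3 and Plagl1 are zinc finger proteins expressed from the paternal copy, and Grb10 is an adaptor that binds the insulin and IGF1 receptors and limits growth. Counts per gene do not separate the parental copies, so the values below are total levels and say nothing of imprinting itself.

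Total counts per library ran from 6838281 to 28902526. Levels are given as CPM, counts scaled to a common library size with TMM factors, and a gene was called at an edgeR adjusted p under 0.05 over the 13780 genes tested. Flnc itself was at 400.4 to 2266 CPM in the 20 WT libraries and at 16.49 to 157.7 CPM in the 19 KO libraries, with no overlap. KO day 1 replicate 3 correlated least with the others of its group (mean r = 0.929 over 13780 genes, others 0.954 to 0.979), and results were also computed without it and WT day 0 replicate 4 (0.955), 2 libraries that an earlier analysis had set apart.

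H19, Peg3 and Grb10 were the members with appreciable counts. H19 held 4111830 counts over the 39 libraries, Peg3 298823 and Grb10 1039, and each had a count in every library. H19 and Peg3 reached a mean of at least 1 CPM, with a count in every library, in all 10 groups. Grb10 did so in 6 of 10 groups, which were KO days 1 to 6 and WT days 4 and 6. Plagl1 had 75 counts in 18 libraries, at most 10 in one library, and reached 1 CPM in no group. Meg3, Mirg and Dlk1 had 0 of 724580548 counts, which allows up to 0.00414 CPM (3 counts), or 0.00828 CPM (6 counts) if both mates of a pair were counted, for counting error only. Per kilobase of exon, the scale on which genes can be compared, the highest group means were 6014 CPM for H19, 44.0 for Peg3, 0.407 for Grb10 and 0.026 for Plagl1.

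H19 lies on the minus strand of chromosome 7 (GRCm38 chr7:142575529-142578143) with 2460 bases of exon in the annotation. The microRNA gene Mir675 lies inside an exon of it, and the mature sequences, from RefSeq (GRCm38.p6), are shown because they are the known small product of this RNA; capitals mark the seed, bases 2 to 8.
mmu-miR-675-5p: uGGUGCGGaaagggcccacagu
mmu-miR-675-3p: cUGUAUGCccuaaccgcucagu
The seeds of the 2 arms differ. Mir675 itself had 0 counts in all 39 libraries, but a read inside it also lies in the H19 exon, and libraries of messenger RNA do not measure mature microRNAs, so this 0 says nothing of miR-675.

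H19 rose strongly with differentiation in both lines and was among the most counted transcripts of the table. In WT replicates 1, 3, 4 and 5 it stood at 1820, 2230, 2363 and 1017 CPM on day 0. On day 4 the same replicates stood at 12370, 18500, 12840 and 15470 CPM, every one above every day 0 library. In all 8 WT libraries of days 4 and 6 H19 ranked first or second by count among all genes, and at WT day 4 it took 1.42% ± 0.24 (SD, n = 4) of all counts. In these bulk samples more cells with H19 and more H19 per cell cannot be told apart.

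WT H19 stayed near its day 0 level on day 1, at 2040, 1383, 1712 and 3418 CPM in replicates 1, 3, 4 and 5. It then rose to 7569, 4778, 3853 and 8549 CPM on day 2, and on day 6 stood at 9726, 11720, 11840 and 14000 CPM. The rise from day 0 was called by edgeR at day 2 (log2 1.74 ± 0.39 (SE), adjusted p = 0.00032), day 4 (2.99 ± 0.31, adjusted p = 4.31e-08) and day 6 (2.67 ± 0.30, adjusted p = 1.79e-07), and not at day 1 (0.20 ± 0.39, adjusted p = 0.822). Of all genes tested, 2.32%, 11.9%, 19.5% and 21.7% were called higher at WT days 1, 2, 4 and 6.

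KO H19 began at 1132, 1500, 2679 and 1019 CPM on day 0 (replicates 1, 3, 4 and 5) and its rise was called from day 1 on. On day 1 it was at 3106, 3369, 3922 and 6020 CPM, all above the KO day 0 libraries (log2 1.38 ± 0.38, edgeR adjusted p = 0.0114, where 4.18% of genes were called higher). That call was lost without KO day 0 replicate 3 (adjusted p = 0.0521), KO day 0 replicate 5 (0.06) or KO day 1 replicate 5 (0.075). KO day 2 replicates 1, 3 and 5 stood at 4202, 6072 and 6554 CPM. The KO libraries then reached 4860, 12720, 6149 and 11180 CPM on day 4 and 6800, 12930, 8137 and 11810 CPM on day 6, with SDs of 3811 and 2920 CPM, beside 2822 and 1747 CPM in WT. The rise was called at KO days 2, 4 and 6 (log2 1.83, 2.46 and 2.65, with 12.7%, 17.9% and 20.5% of genes called higher).

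Between the genotypes H19 ranges overlapped on every day. KO minus WT was -0.23 on the log2 scale at day 0, 0.94 ± 0.35 at day 1, -0.14 at day 2, -0.76 ± 0.36 at day 4 and -0.25 at day 6. None was called in the fit without a replicate block (edgeR adjusted p = 0.683, 0.0501, 0.860, 0.0939 and 0.624). Same-numbered libraries deviated together on days 0 to 4, and with the replicate number as a block within the day H19 was called higher in KO at day 1 (log2 0.98, edgeR adjusted p = 0.00126) and lower at day 4 (-0.85, adjusted p = 0.0024). The share of all genes called with the block is not given here for these days or for the test over all days below. In the added contrast below, the block raised that share from 3.58% to 9.54%. KO exceeded WT in 4 of 4 pairs at day 1, by 1.52 to 2.44 times, and WT exceeded KO in 4 of 4 pairs at day 4, by 1.38 to 2.55 times. Without the block, day 1 was also called when KO day 1 replicate 1, KO day 1 replicate 3 or WT day 1 replicate 5 was left out (adjusted p = 0.0372, 0.046 and 0.0188), and day 4 without KO day 4 replicate 3 (0.0452).

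A contrast added after these values were seen compared the genotype difference at day 4 with that at day 1. For H19 it was -1.70 on the log2 scale (edgeR adjusted p = 0.0373), and -1.83 with the block (adjusted p = 0.000433), where 3.58% and 9.54% of all genes were called. Over all days together the planned test of genotype by day did not call H19 (adjusted p = 0.150, with 7.74% of genes called), and the test of KO against WT over all 5 days called it only with the block (adjusted p = 0.0689 without and 0.000435 with it, where 44.7% of genes were called without it) or when 1 of 4 libraries was left out (KO day 0 replicate 4, 0.025; KO day 4 replicate 3, 0.0384; WT day 0 replicate 5, 0.043; WT day 1 replicate 5, 0.0218), and in DESeq2 (0.0249).

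**Figure D1:**
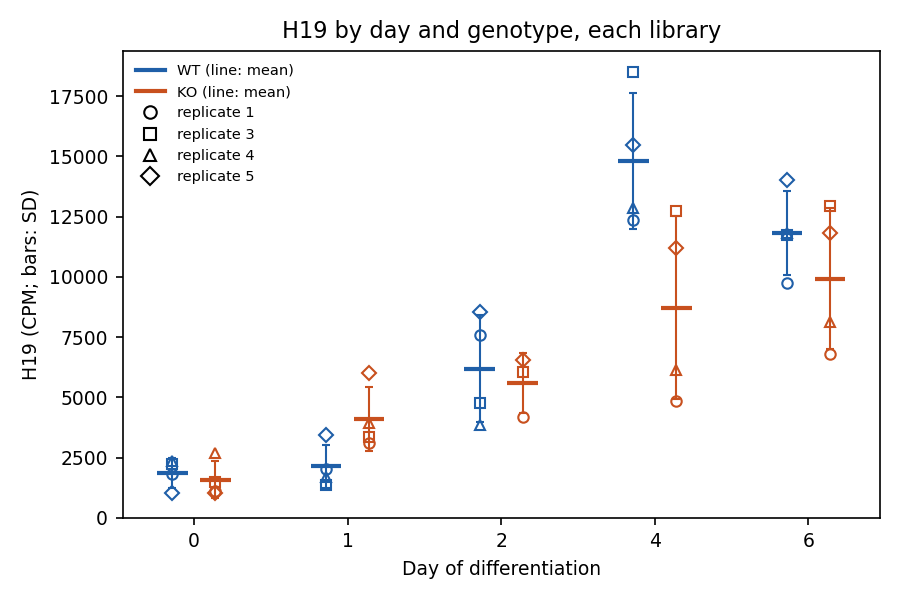
H19 level in CPM (linear axis) against day of differentiation for each WT (blue) and KO (orange) library, with replicate numbers as symbols, lines for group means and bars for SD. WT day 4 libraries sit at 12370 to 18500 CPM, KO day 4 libraries at 4860 to 12720 CPM, and on day 1 the KO mean (4104 CPM) is above the WT mean (2138 CPM).

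Genes whose log2 CPM followed H19 most closely over the 39 libraries were Dnajb5, a heat shock protein cofactor (Pearson r = 0.954), Syn2, a synaptic vesicle protein (0.93), and Myom1, a protein of the sarcomere's M-band (0.922). These libraries share their day structure, so many genes of differentiation correlate in the same way. Only 1 of the 3 remained among the closest 3 by Spearman's rho, and 2 of 3 over the 10 group means.

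Of the genes around H19 in a list of 22, 20 had a count and 17 were tested. Igf2, the growth factor gene whose enhancers H19 shares, was measured at 66.4, 61.8, 117, 142 and 89.9 CPM in WT on days 0, 1, 2, 4 and 6 and at 41.1, 73.7, 183, 229 and 138 CPM in KO. KO replicate 1 was the highest KO library for Igf2 on every day, at up to 408.8 CPM on day 2, and Igf2 was called between genotypes on no day (edgeR adjusted p = 0.648 over all days), though without KO replicate 1 it was called lower at day 0 (log2 -1.93, adjusted p = 0.0492). Its log2 CPM correlated with that of H19 at r = 0.457 over the 39 libraries. Ins2, the insulin gene next to Igf2, stayed at or below 5.015 CPM in every library and correlated with H19 at r = 0.89, as did Tnnt3, the fast troponin T gene on the other side, at 0.881. Tnnt3 was lower in KO over all days (adjusted p = 0.0038) and on single days with the replicate block, at days 2, 4 and 6 (log2 -1.72, -1.34 and -1.25, adjusted p = 0.0225, 0.0222 and 0.0314, where the numbers of day 6 do not pair the libraries), or in edgeR fits of only the groups compared (0.0216, 0.00461 and 0.00308).

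Further along the same stretch of chromosome 7, 5 genes were called lower in KO at both day 4 and day 6, and 1 higher at both. Those lower were Cd81, a tetraspanin (log2 -0.99 and -1.11), Tssc4 (-1.16 and -1.34), Osbpl5, an oxysterol-binding protein (-0.89 and -0.97), Dhcr7, the last enzyme of cholesterol synthesis (-2.50 and -2.47), and Tspan32, another tetraspanin (-3.00 and -3.80). Slc22a18, a transporter, was higher (1.72 and 1.96), a call lost at day 4 without KO replicates 3 or 4 or WT replicate 5 (edgeR adjusted p = 0.074, 0.0616 and 0.0663) and at day 6 without KO replicate 3 or WT replicate 1 (0.0528 and 0.0512). Over all genes, 14.2% were called lower and 13.3% higher at day 4, and 14.4% and 14.5% at day 6. Cdkn1c, the imprinted cyclin-dependent kinase inhibitor, fell from 1.37 to 0.184 CPM in KO between days 0 and 6 and was 0.997 and 0.687 CPM in WT, and was called between genotypes on no day (edgeR adjusted p = 0.0515 at day 4 and 0.0741 at day 6), but was called lower at both without WT replicate 5 of that day (0.0307 and 0.0233) and in DESeq2 (0.0229 and 0.0473). Kcnq1, a potassium channel gene below 1 CPM in every group mean, was higher in KO at days 0, 1 and 2 (log2 4.40, 3.07 and 3.31), of which days 1 and 2 were lost with the replicate block (edgeR adjusted p = 0.0586 and 0.122) and day 0 without WT replicates 3 or 5 (0.0507 and 0.054). The antisense transcripts Igf2os, at up to 0.845 CPM, and Kcnq1ot1, at 1.22 to 2.91 CPM over group means, were called on no day, and the strand setting of the counting is not given, so reads of a gene and its antisense partner may be mixed. Mrpl23, a mitochondrial ribosomal protein gene, Lsp1, an actin-binding protein gene, and Nap1l4, a histone chaperone gene, were called on no day, and Phlda2, Ascl2 and Mir483 had 8, 2 and 3 counts in all.

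Peg3 lies on the minus strand of chromosome 7 (GRCm38 chr7:6703892-6730431) with 13324 bases of exon. Its start region is shared with Usp29, a ubiquitin-specific protease gene read in the opposite direction, and is printed because both genes were lower in KO on day 0. The 300 bases from 250 before to 50 after the Peg3 start (RefSeq, GRCm38.p6, chr7:6730370-6730669, minus strand) follow; 263 of them also lie in the Usp29 window of the same length, and capitals mark 1 cyclic AMP response element and 2 CCAAT boxes.
Peg3: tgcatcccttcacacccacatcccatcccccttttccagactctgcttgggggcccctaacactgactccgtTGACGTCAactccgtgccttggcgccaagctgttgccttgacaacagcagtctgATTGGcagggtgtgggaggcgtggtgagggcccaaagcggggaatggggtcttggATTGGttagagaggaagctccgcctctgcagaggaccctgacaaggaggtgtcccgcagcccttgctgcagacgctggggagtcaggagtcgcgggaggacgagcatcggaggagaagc
The element TGACGTCA, searched on both strands, occurs in 1.79% of the 32851 promoter windows of this length. CCAAT, present here as its reverse complement, occurs at least once in 37.41% of them and at least 2 times in 11.7%. The myogenic E-box CANNTG is not in this window, though 72.31% of promoter windows hold one, and the window's 13 CpG dinucleotides are matched or exceeded in 37.91%. These letters are a description of the sequence and not of binding.

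Peg3 was lower in KO than in WT on day 0 and rose in KO after serum was reduced. On day 0, WT replicates 1, 3, 4 and 5 stood at 461.2, 321.9, 161.1 and 323.6 CPM and KO replicates at 158.3, 43.9, 170.7 and 62.3 CPM. WT replicate 4, one of the 2 libraries that stand apart, was the only WT library inside the KO range. The difference was -1.54 ± 0.58 on the log2 scale (edgeR adjusted p = 0.0238, or 0.00366 with the replicate block), where 9.09% of genes were called lower, and KO was lower in 3 of 4 pairs. It was no longer called without KO replicate 3 (-1.28, adjusted p = 0.0931), KO replicate 5 (-1.35, 0.0807) or WT replicate 1 (-1.31, 0.081).

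On later days Peg3 ranges overlapped between genotypes. On day 1 the WT libraries were at 761.6, 345.1, 465.9 and 772.8 CPM and the KO libraries at 646.0, 90.69, 345.1 and 424.4 CPM. On day 2 WT stood at 764.4, 354.7, 413.1 and 525.8 CPM and KO replicates 1, 3 and 5 at 420.2, 387.3 and 460.4 CPM. WT was at 917.2, 234.2, 349.3 and 657.3 CPM on day 4 and at 570.6, 806.5, 373.8 and 382.6 CPM on day 6. KO was at 526.9, 145.7, 406.2 and 326.4 CPM on day 4 and at 443.3, 319.2, 513.4 and 262.0 CPM on day 6. Replicate 3 was the lowest KO library on days 0, 1, 2 and 4, and the lowest WT library on days 1, 2 and 4. KO minus WT was -0.64, -0.28, -0.62 and -0.47 on the log2 scale at days 1, 2, 4 and 6 (edgeR adjusted p = 0.385, 0.784, 0.360 and 0.491), lower at every day but not called. At day 1, where same-numbered libraries deviated together, KO was lower in 4 of 4 pairs, by 1.18 to 3.81 times, and was not called with the block either (log2 -0.85, adjusted p = 0.0965).

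Within KO, Peg3 rose from day 0 by 1.79 ± 0.78 at day 1, 1.96 ± 0.49 at day 2, 1.69 ± 0.63 at day 4 and 1.82 ± 0.54 at day 6 on the log2 scale (edgeR adjusted p = 0.0178, 0.00422, 0.00562 and 0.00258). All KO libraries of days 2 and 6 were above every KO day 0 library. The day 1 call was lost without KO day 0 replicate 3 (adjusted p = 0.0971), KO day 0 replicate 5 (0.0802), KO day 1 replicate 1 (0.105) or KO day 1 replicate 5 (0.0576). Within WT the same differences were 0.89, 0.70, 0.77 and 0.75 and were not called (adjusted p = 0.317, 0.290, 0.188 and 0.184). The difference between the genotypes in this rise was 0.90, 1.26, 0.92 and 1.07 and was called on no day (adjusted p = 1.000, 0.574, 0.455 and 0.329; 0.831 over all days), so the rise in KO is not shown to differ from WT.

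Peg3 is a long transcript, and long transcripts as a group were lower in KO on day 0. The 1299 tested genes with at least 10000 bases of exon had a median log2 difference of -0.38 at day 0, beside -0.01 for all 13780 genes, and of -0.14, 0.01, 0.04 and 0.10 on days 1, 2, 4 and 6. The part of this shift in the Peg3 difference was not tested. The genes closest to Peg3 over the 39 libraries were Tulp4 (r = 0.92), Mbd5, a methyl-CpG-binding domain protein (0.918), and Baz2b, a bromodomain protein (0.912), of which 1 remained among the closest 3 by Spearman's rho and 0 over group means.

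Usp29 was lower in KO than in WT on all 5 days. On day 0 its 4 WT libraries held 8.39, 6.67, 4.46 and 7.57 CPM (replicates 1, 3, 4 and 5) and its KO libraries 1.68, 1.65, 1.62 and 1.35 CPM. The groups did not overlap on days 0, 1, 4 and 6, and on day 2 WT replicate 4, at 3.72 CPM, fell inside the KO range. KO minus WT was -2.10, -1.47, -1.15, -1.43 and -1.37 on the log2 scale on days 0, 1, 2, 4 and 6 (edgeR adjusted p over all days = 2.21e-08). The day 2 call was lost without KO replicate 3 (adjusted p = 0.0524), KO replicate 5 (0.158), WT replicate 1 (0.0692) or WT replicate 5 (0.0549). Zim1, the neighbouring imprinted zinc finger gene, rose from 34.2 to 139 CPM in WT and from 13.9 to 128 CPM in KO between days 0 and 6, and between genotypes was called only at day 0, with the replicate block (edgeR adjusted p = 0.0245, and 0.104 without it) or without WT day 0 replicate 4 (0.0497). Over the 39 libraries log2 CPM of Peg3 correlated with Zim1 at r = 0.901 and with Usp29 at r = 0.667. Zim2 and Zim3 were at 0 counts in all libraries.

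**Figure D2:**
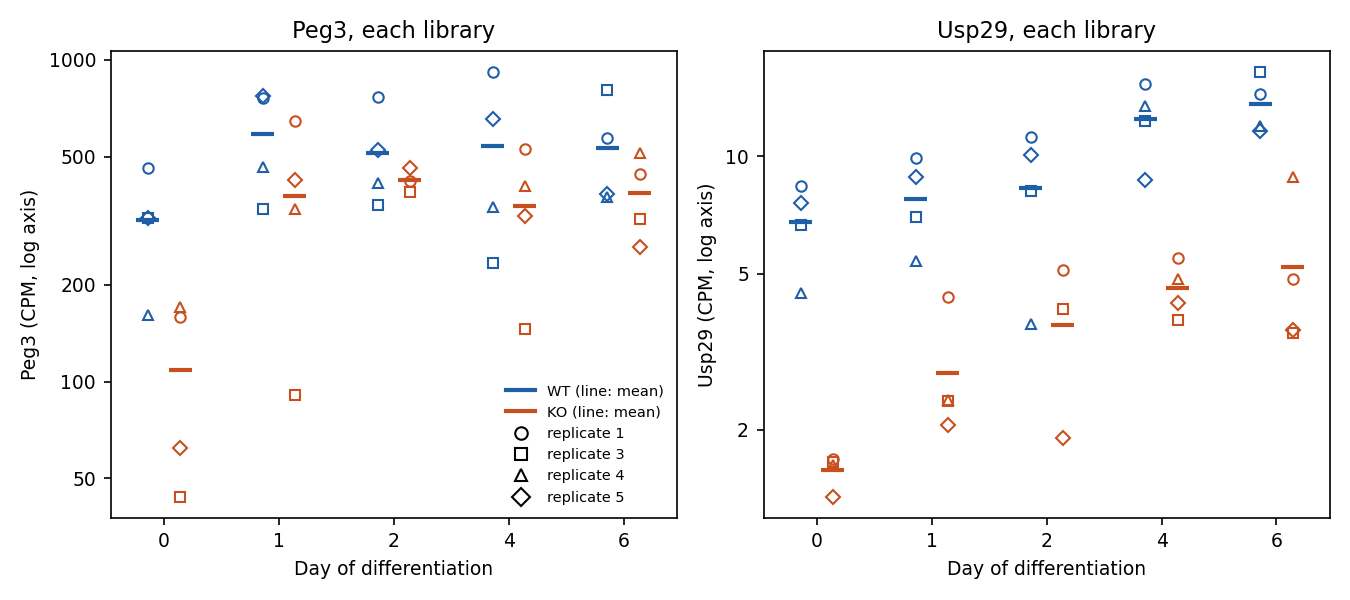
Peg3 (left) and Usp29 (right) in CPM on log axes against day, with each WT (blue) and KO (orange) library as a symbol by replicate and lines for group means. For Peg3 the lowest KO libraries are at 43.9 CPM on day 0 and 90.69 CPM on day 1, and the groups overlap on every day, while for Usp29 they overlap on day 2 only.

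Grb10 lies on the minus strand of chromosome 11 (GRCm38 chr11:11930508-12038683) with 9089 bases of exon. It was low in all groups, and it was higher in KO than in WT on days 0, 1 and 2 and not on days 4 and 6. WT replicates 1, 3, 4 and 5 held 2, 4, 4 and 6 counts on day 0, or 0.0717, 0.139, 0.194 and 0.215 CPM. KO replicates held 16, 6, 22 and 6 counts, or 0.5495, 0.309, 0.939 and 0.238 CPM, each above every WT library. On day 1 WT libraries had 2, 8, 4 and 4 counts (0.0765, 0.403, 0.2375 and 0.182 CPM) and KO libraries 32, 20, 49 and 35 (1.55, 1.69, 2.65 and 1.497 CPM). The groups were farthest apart on this day, and on day 2 they still did not overlap, with 0.7705, 0.343, 0.191 and 0.867 CPM in WT and 1.69, 3.24 and 1.96 CPM in KO replicates 1, 3 and 5.

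By days 4 and 6 the groups overlapped. WT rose to 2.34, 4.10, 3.43 and 1.61 CPM on day 4 and 4.02, 3.77, 5.32 and 1.69 CPM on day 6. KO stood at 2.52, 1.44, 2.43 and 2.21 CPM on day 4 and 1.94, 5.98, 2.39 and 3.11 CPM on day 6. KO minus WT was 1.69 ± 0.41 at day 0, 3.03 ± 0.35 at day 1 and 2.08 ± 0.49 at day 2 on the log2 scale (edgeR adjusted p = 0.0319, 8.41e-05 and 0.00371), which is 3.23, 8.20 and 4.23 times. The SEs of Grb10, here and below, are of log2 CPM with a prior count of 2. At few counts this prior narrows the spread, so they are not the error of the fitted differences. At days 4 and 6 it was -0.40 and -0.16 (adjusted p = 0.575 and 0.839). Of all genes tested, 6.46%, 8.1% and 7.64% were called higher in KO at days 0, 1 and 2.

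The day 0 call rests on few counts. It was not kept with the replicate block (log2 1.57, edgeR adjusted p = 0.0566), without the filter on low counts (0.0503), or without KO replicate 1 (0.0571), KO replicate 4 (0.152), WT replicate 1 (0.111) or WT replicate 3 (0.0829). The calls at days 1 and 2 were kept in every alternative run, with adjusted p up to 0.00111 and 0.0384 when 1 library was left out.

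The genotype difference in Grb10 changed with the day. The edgeR test of genotype by day over all days gave an adjusted p of 0.00178, with 7.74% of genes called, and was called without any 1 library (adjusted p = 0.000854 to 0.00445). Against day 0 alone, the difference at day 4 was -2.09 and at day 6 was -1.85 on the log2 scale, neither called (adjusted p = 0.0663 and 0.0933; 7.66% and 9.95% of genes called). Day 4 was called in DESeq2 (-2.18, adjusted p = 0.0334) and without KO day 0 replicate 5 (-2.33, 0.0464), and day 6 without KO day 6 replicate 3 (-2.27, 0.0428). In the added contrast of day 4 with day 1 it was -3.44 (adjusted p = 0.00322), and -3.43 with the replicate block (0.00603). These days were chosen after the values were seen, which the p-values do not allow for, and 3.58% and 9.54% of all genes were called. The same contrast for Peg3 was 0.02 (adjusted p = 0.9999).

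Within each line Grb10 rose with differentiation. In WT the increase over day 0 was 1.77 ± 0.45 at day 2, 4.16 ± 0.34 at day 4 and 4.54 ± 0.39 at day 6 on the log2 scale (edgeR adjusted p = 0.0159, 2.06e-07 and 3.58e-08), or 17.9 times at day 4 and 23.3 times at day 6. The day 2 call was lost without WT day 0 replicate 1 (adjusted p = 0.0587), WT day 2 replicate 1 (0.0577) or WT day 2 replicate 5 (0.0707). In KO the increase was 1.84 ± 0.40, 2.16 ± 0.45, 2.07 ± 0.40 and 2.69 ± 0.49 at days 1, 2, 4 and 6 (adjusted p = 0.0173, 0.00202, 0.0012 and 5.13e-05), with all KO libraries of each later day above those of day 0. The day 1 call was lost without KO day 0 replicate 3 (0.0869) or replicate 5 (0.0797). Genes closest to Grb10 over the 39 libraries were Sgca, the muscle sarcoglycan (r = 0.875), Arhgap28 (0.872), and Cyb5d2 (0.866), and 2 remained among the closest 3 by Spearman's rho and 0 over group means.

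No tested neighbour of Grb10 was called higher in KO on days 0 to 2. The median log2 difference of the 4 tested genes of the locus, Grb10 among them, was 0.53, 0.08 and -0.79 on those days. Ddc was low, so the missing call does not show that it did not differ. Cobl and Ddc also rose with time. Both were called higher than day 0 at WT days 2, 4 and 6 and at KO days 4 and 6, and Ddc also at WT day 1 and Cobl at KO day 2. Cobl, an actin nucleator gene beside it, was lower in KO from day 1 on (log2 -0.75, -1.26, -1.59 and -1.86 at days 1, 2, 4 and 6), and its day 1 call was lost without KO replicates 3 or 5 or WT replicates 1 or 5 (edgeR adjusted p = 0.146, 0.0975, 0.0676 and 0.143). Ddc, the decarboxylase gene that overlaps the imprinted domain, was at 0.385 to 6.51 CPM in WT and 0.712 to 3.36 CPM in KO over group means and passed the edgeR test of the genotypes over all days (adjusted p = 0.0257, and 0.0533 without KO day 2 replicate 3). It was called on no single day, except lower at day 4 without KO replicate 5 (0.0355) and at day 6 without WT replicate 5 (0.0224). Fignl1, a DNA repair gene, fell with time in both lines, from 70.3 to 4.19 CPM in WT and from 80.7 to 6.09 CPM in KO, and was called between genotypes on no day. Ikzf1, a lymphoid transcription factor gene, had 126 counts, all in WT.

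**Figure D3:**
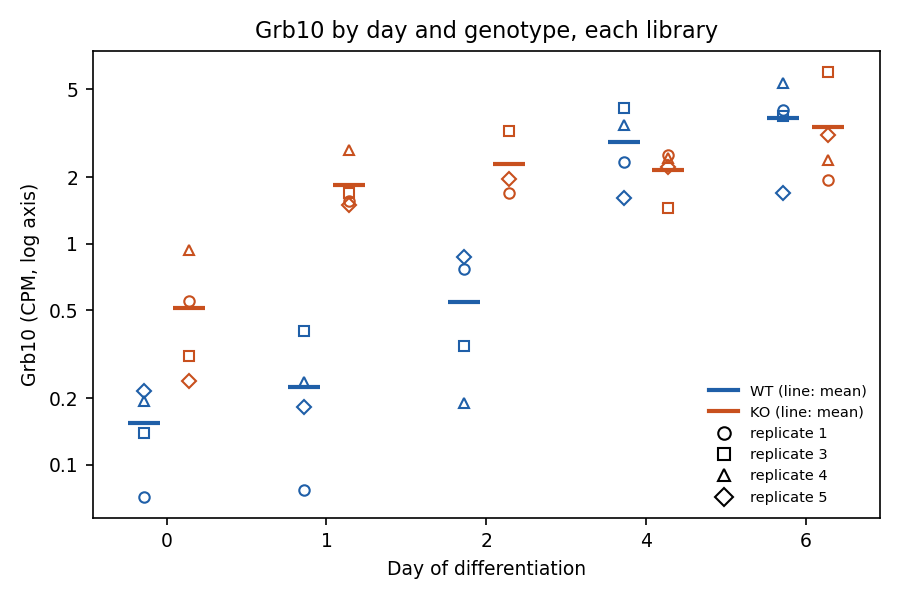
Grb10 level in CPM on a log axis against day of differentiation, with each WT (blue) and KO (orange) library as a symbol by replicate and lines for group means. All KO libraries are above all WT libraries on days 0, 1 and 2, and the groups overlap on days 4 and 6.

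Meg3, Mirg and Dlk1 were without a count, and so was every gene of the domain around them that has a row. Rian, which lies in this domain, was not analysed here, and some short RNA genes of the domain have no row either. From Dlk1 (GRCm38 chr12:109452823-109463336) over Meg3 (chr12:109541001-109571726) and Mirg (chr12:109729764-109749460), all on the plus strand, to Dio3, a deiodinase gene, the table holds 81 genes over 828 kb, and 0 of them had a count. They are 59 microRNA genes, 17 small nucleolar RNA genes and 5 others, Dlk1, Meg3, Rtl1, Mirg and Dio3. The short RNA genes say little, since over the whole table only 28.34% of microRNA genes and 17.95% of small nucleolar RNA genes had any count. Of protein-coding genes 78.75% and of lincRNA genes 46.06% had a count. Genes on either side were counted: Wdr25, a WD repeat protein gene, with 5616 counts (7.10 to 9.65 CPM over group means), Begain, a synaptic scaffold gene, with 45, and Ppp2r5c, a phosphatase subunit gene, with 84048 (94.2 to 146 CPM). Neither Wdr25 nor Ppp2r5c was called between genotypes on any day.

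**Figure D4:**
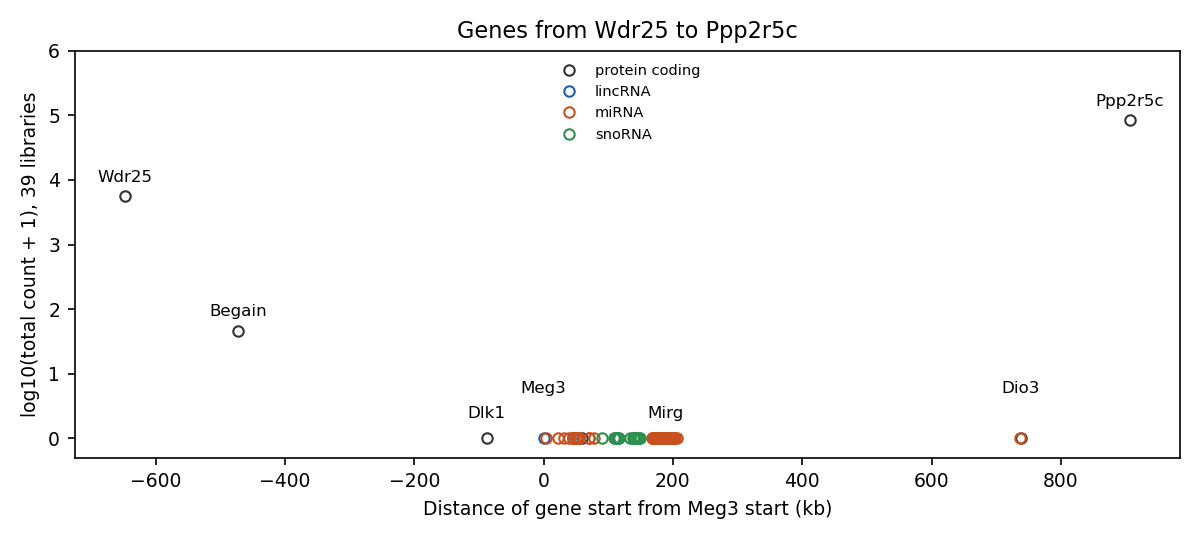
Total count over the 39 libraries, as log10(count + 1), against the distance of each gene's start from the Meg3 start in kb, coloured by kind of gene. All 81 genes with a row from Dlk1 to Dio3 are at 0, while Wdr25, Begain and Ppp2r5c outside them have 5616, 45 and 84048 counts.

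Plagl1, on the plus strand of chromosome 10 (GRCm38 chr10:13060504-13131694), was close to the limit of detection. Its 75 counts were spread over WT days 0, 1, 2 and 4 (23, 10, 4 and 2 counts) and KO days 0, 1 and 2 (16, 10 and 10 counts), and it had 0 counts at WT day 6 and at KO days 4 and 6. Group means were at most 0.203 CPM, and it was not tested. Of its neighbours, Ltv1, a ribosome assembly factor gene, was steady between genotypes (log2 differences of -0.20 to -0.07, called on no day). Stx11, a syntaxin gene, was lower in KO on days 2, 4 and 6 (-1.20, -1.97 and -2.04) and also on days 0 and 1 (-0.57 and -0.68), where leaving out single libraries ended the call (6 of 8 libraries at day 0, with adjusted p up to 0.104, and WT replicate 1 at day 1, 0.0531). Sf3b5, a splicing factor subunit gene, was higher at day 0 (0.85, edgeR adjusted p = 0.0425), a call lost without any of 6 of 8 libraries (up to 0.183), and Phactr2 had 2 counts in all.

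Across the members, 4 of 15 tests of KO against WT by day were called: Grb10 higher at days 0, 1 and 2 and Peg3 lower at day 0. Of all genes, 15.5%, 18%, 17.9%, 27.5% and 28.9% were called in either direction at days 0, 1, 2, 4 and 6. Of 24 tests of a later day against day 0, 18 were called, 6 of 12 in WT and 12 of 12 in KO, all higher. The background for any direction was 4.19%, 25.6%, 43.7% and 49.4% of genes in WT and 7.99%, 26.6%, 37.5% and 43.6% in KO at days 1, 2, 4 and 6. The test over any later day within a line called 5 of 6, all but Peg3 in WT, beside 48.5% of genes in WT and 38.7% in KO. Genotype by day was called for no member on a single day against day 0, where 0% and 0.544% of genes were called at days 1 and 2. Of those 12 tests 3 had an unadjusted edgeR p under 0.05 (Grb10 at days 4 and 6 and H19 at day 1), and DESeq2 called 1. The test of KO against WT over all days called Grb10 (adjusted p = 8.55e-06) and Peg3 (0.0468), and the call for Peg3 was lost without the filter on low counts (0.07) and without any 1 of 20 libraries (up to 0.118, without KO day 0 replicate 5).

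Ordered by mean CPM, H19 ran from WT day 4 (14800 ± 2822 (SD, n = 4)), WT day 6 (11820 ± 1747), KO day 6 (9921 ± 2920) and KO day 4 (8727 ± 3811) through WT day 2, KO day 2, KO day 1, WT day 1 and WT day 0 to KO day 0 (1582 ± 759). Peg3 ran from WT day 1 (586 ± 215) through WT days 4, 6 and 2 and KO days 2, 6, 1 and 4 to WT day 0 (317 ± 123) and KO day 0 (109 ± 65.0). Grb10 ran from WT day 6 (3.70 ± 1.504), KO day 6, WT day 4, KO day 2, KO day 4 and KO day 1 (1.85 ± 0.54) to WT day 2 (0.543 ± 0.33), KO day 0, WT day 1 and WT day 0 (0.155 ± 0.06). Library ranges of neighbours in these orders overlapped in 26 of 27 steps, and the exception was the step of Grb10 between KO day 1 and WT day 2. Per kilobase of exon, mean H19 exceeded mean Peg3 in every group, by 19.75 to 148.5 times.

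Other imprinted genes of the study were lower in KO more often than higher. Of 63 in the list, 62 had a row, 49 a count and 41 were tested. In KO against WT, 1 was called higher and 4 lower at day 0, 2 and 8 at day 1, 2 and 7 at day 2, 6 and 13 at day 4, and 4 and 12 at day 6. That is 12.2%, 24.4%, 22.0%, 46.3% and 39.0% of the 41, beside 15.5%, 18%, 17.9%, 27.5% and 28.9% of all genes tested. Of all genes, 9.09%, 9.93%, 10.3%, 14.2% and 14.4% were called lower at days 0, 1, 2, 4 and 6, and 6.46%, 8.1%, 7.64%, 13.3% and 14.5% higher. The list's median log2 difference was -0.05, -0.04, -0.13, -0.43 and -0.33, beside -0.01, 0.01, -0.04, 0.01 and 0.02 over all genes. At day 0 the replicate block gave 4 higher and 10 lower, and leaving out the 2 libraries that stand apart gave 2 and 8. At day 1 leaving out those 2 gave 4 higher and 5 lower. The shares of all genes called with the block, without those 2 libraries or with 1 library left out are not given here. With 1 library left out the counts lower ranged from 3 to 8 at day 0 (8 without WT replicate 4), 4 to 10 at day 1, 3 to 8 at day 2, 10 to 14 at day 4 and 12 to 14 at day 6. Counts higher then ranged from 0 to 1, 1 to 4, 0 to 2, 3 to 5 and 2 to 5. Single libraries moved a count by over 1.5 times at day 0 (WT replicates 3, 4 and 5), day 1 (all but WT replicate 4), day 2 (all but WT replicate 5), day 4 (KO replicate 4) and day 6 (WT replicate 1).

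The genes with the smallest p over all days were Mest, Gatm, Usp29 and Dhcr7. Mest, a hydrolase-like gene expressed from the paternal copy, was at 3.23, 12.6, 11.9, 6.125 and 3.35 CPM in WT on days 0, 1, 2, 4 and 6 and at or below 0.312 CPM in the KO means (log2 -4.70, -5.86, -5.14, -5.16 and -5.89, edgeR adjusted p = 2.28e-10 over all days). Its lowest WT library, 1.69 CPM, was above its highest KO library, 0.847 CPM. Gatm, the first enzyme of creatine synthesis, was lower by log2 -1.09, -2.02, -2.54, -1.85 and -1.35, with the day 0 call lost without KO replicate 1, KO replicate 4 or WT replicate 5 (adjusted p = 0.0534, 0.0694 and 0.0508). Ndn, the growth-suppressing necdin gene, chosen after its values were seen, averaged 0.511 to 0.881 CPM in WT groups and had 0 counts in all KO libraries of days 1 to 6. WT replicate 1 held most of it (2.007, 2.142, 2.226, 1.202 and 1.759 CPM on days 0, 1, 2, 4 and 6, where the other WT libraries were at 0 to 0.907 CPM), and without that library the calls at days 0, 2 and 4 were lost (edgeR adjusted p = 0.188, 0.116 and 0.051), as they were without single KO libraries (up to 0.0966, 0.0988 and 0.0554).

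**Figure D5:**
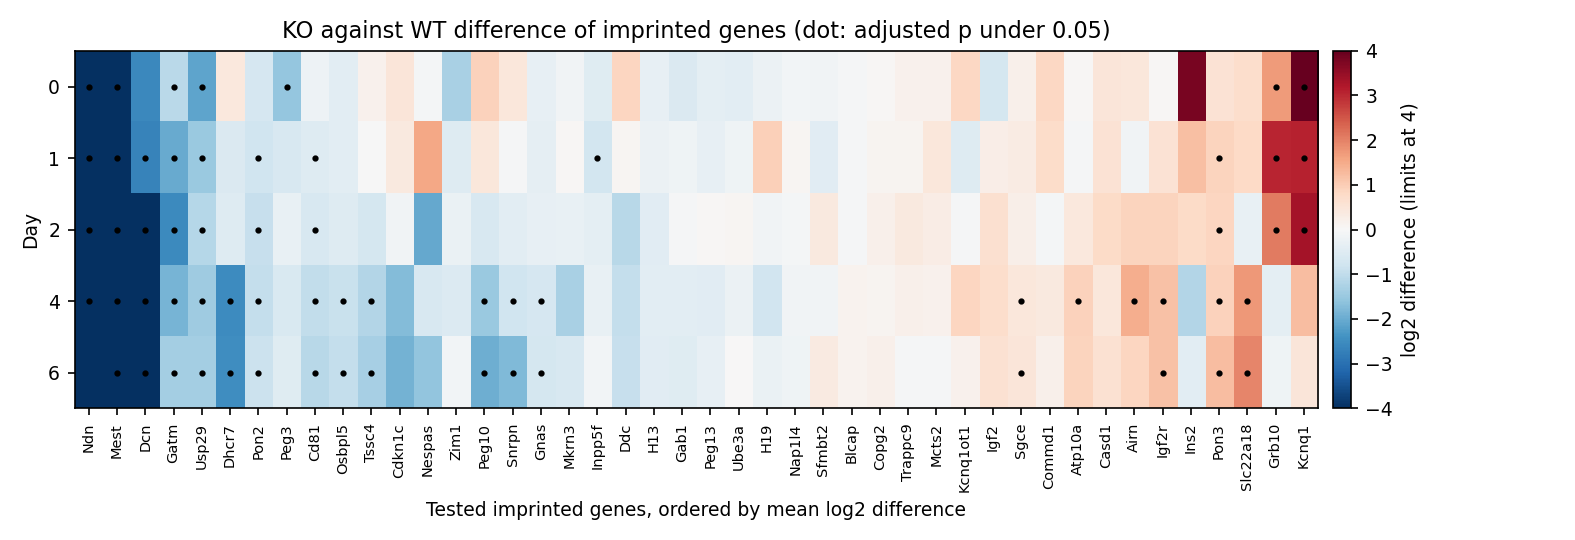
KO minus WT difference on the log2 scale (colour, limits at 4) for the 44 tested imprinted genes by day, with a dot where the edgeR adjusted p was under 0.05. Grb10 is red on days 0, 1 and 2 only, H19 carries no dot, Peg3 carries a dot on day 0, and Mest and Usp29 are blue on all 5 days.

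A network of imprinted genes that are reported to be expressed together and to respond to Plagl1 gave 12 tested genes of 15, members among them. Of these 1 was called higher and 4 lower on each of days 0, 1 and 2, 2 and 5 at day 4, and 2 and 4 at day 6. That is 41.7%, 41.7%, 41.7%, 58.3% and 50% of the 12, beside 15.5%, 18%, 17.9%, 27.5% and 28.9% of all genes. Its genes with the smallest p were Mest, Gatm, Dcn and Grb10, of which Grb10 was the one higher on days 0 to 2. Dcn, the matrix proteoglycan decorin, averaged 379 CPM at WT day 4 and 17.3 CPM at KO day 4 (log2 -4.46). The day 1 call of Dcn was lost without single libraries (edgeR adjusted p up to 0.109). At day 0 the calls of Peg3, Grb10, Gatm and Ndn were each lost in the same way (up to 0.0931, 0.152, 0.0694 and 0.188). Plagl1 itself, as given above, was at most 0.203 CPM in any group.

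Of 22 genes that set or maintain imprints 19 were tested, and 0 were called at days 0 and 1 by edgeR or by DESeq2 (1 and 2 at an unadjusted edgeR p under 0.05), 1 higher and 2 lower at day 2, 0 and 1 at day 4, and 1 and 1 at day 6. The 0 genes at days 0 and 1 stand beside 15.5% and 18% of all genes. The shares at days 2 and 4 were 15.8% and 5.26% of the 19, beside 17.9% and 27.5% of all genes, and the 2 genes at day 6 stand beside 28.9% of all genes. Zfp57, a zinc finger protein that protects imprints, was lower in KO by log2 -1.32 at day 4 and -1.40 at day 6 (edgeR adjusted p = 0.0125 and 0.00977, the latter 0.0716 without WT replicate 4). Its day 2 call (-1.22) was lost with the replicate block (-0.40, 0.139), in a fit of only these groups (-1.21, 0.202) and without WT replicate 4 (-0.36, 0.577) or any KO library (up to 0.183), while day 1 was called with the block (0.00328). Ezh2, a histone methyltransferase, was lower at day 2 (-1.05), a call lost without any of 5 libraries (up to 0.117, without WT replicate 5), and, with the block, at day 1 (0.0189). Tet1, a methylcytosine oxidase, was higher at day 2 (1.58), a call lost without any of 4 libraries (up to 0.159, without KO replicate 5). Rbbp4, a histone chaperone, passed the edgeR test over all days (0.0231, and up to 0.0671 without WT day 1 replicate 5) and on single days with the block, at day 4 (0.0266) and at day 6 (0.0387), where the numbers do not pair the libraries.

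Grb10 acts on receptors of insulin and the IGFs, and of 30 genes of that pathway 29 were tested. In KO, 1 was called higher and 4 lower at day 0, 2 and 4 at day 1, 5 and 4 at day 2, 5 and 3 at day 4 and 6 and 5 at day 6, with median log2 differences between -0.12 and 0.34. These are 17.2%, 20.7%, 31.0%, 27.6% and 37.9% of the 29, and the shares of all genes, 15.5%, 18%, 17.9%, 27.5% and 28.9%, were close to them on days 0, 1 and 4. The binding proteins led by p. Igfbp5, which is secreted by differentiating myoblasts, rose in KO from 1167 CPM on day 0 to 12630 on day 2 and was higher than WT by log2 1.93, 2.74 and 2.93 at days 2, 4 and 6. Igfbp3 averaged 2.65 to 8.92 CPM in WT and at most 0.194 CPM in KO groups, and Igf2bp3, which binds Igf2 RNA, 0.794 to 2.94 and at most 0.188 CPM. Igfbp4 was lower in KO on days 0, 1 and 2 (-3.98, -3.38 and -2.28), with the day 2 call lost without KO replicates 3 or 5 (edgeR adjusted p = 0.0528 and 0.0964). At day 6 it was higher in KO by log2 1.14, not called (0.172), but called with the replicate block (adjusted p = 0.0409) and without WT replicate 4 (2.22, 0.0154).

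Dlk1 is a noncanonical ligand-like partner of Notch, and of 18 genes of the Notch pathway 16 were tested. In KO, 1 was called higher and 0 lower at day 0, 2 and 3 at day 1, 1 and 3 at day 2, 3 and 1 at day 4 and 5 and 3 at day 6. The shares called were 6.25%, 31.2%, 25.0%, 25.0% and 50% of the 16, beside 15.5%, 18%, 17.9%, 27.5% and 28.9% of all genes. Heyl, a Notch target, was higher in KO by log2 3.10 and 3.25 at days 4 and 6, and by 2.08, 1.83 and 2.29 at days 0, 1 and 2, where leaving out single libraries ended the call (edgeR adjusted p up to 0.0862, 0.0841 and 0.0581). The targets Hes1, Nrarp and Hey1 were lower at day 2 (-1.39, -3.65 and -2.11). Hes1 was also called lower at days 1 and 6 (edgeR adjusted p = 0.0293 and 0.0411), Hey1 at day 1 (0.00807) and Nrarp at day 6 (0.00806). Each of these further calls was lost without single libraries (up to 0.0799, 0.123, 0.0747 and 0.0594). Nrarp was not called at days 1 and 4 in the main edgeR fit (0.138 and 0.0642), but DESeq2 called it lower on both (0.0452 and 0.0158). At day 4 edgeR also called it lower with halved counts (0.0429), with the replicate block (0.0469) or without KO replicate 1 (0.014). The other settings did not call it on these days.

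Markers of muscle differentiation rose with time in both lines, as H19 and Grb10 did, and more of them were called lower than higher in KO. The summed CPM of 12 myoblast and myotube genes rose from 1797 to 5041 over WT day 0 libraries to 17850 to 23220 at WT day 4, and from 1672 to 3252 at KO day 0 to 5502 to 11630 at KO day 4. Of the 12, 4 were called lower in KO at day 0, 7 at days 1 and 2, 6 at day 4 and 3 at day 6, beside 9.09%, 9.93%, 10.3%, 14.2% and 14.4% of all genes. Myod1, the myogenic factor, was called higher at days 1 to 6 (log2 0.88 to 1.04). Mymk, the fusion protein myomaker, was lower by -2.08, -3.20, -3.10, -2.10 and -2.06. On day 1, where the H19 mean and every Grb10 library were higher in KO than in WT, the myotube genes Mymk, Myog and Myh3 were lower (-3.20, -2.63 and -4.41). Of 8 cell cycle genes 1, Rrm2, was called (lower in KO at days 4 and 6, where 14.2% and 14.4% of all genes were called lower).

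Markers of other cell types were near 0 for fat, endothelium and leukocytes and higher for fibroblasts and neural cells, and their part in the results was not tested. The 4 fat cell markers summed to at most 2.72 CPM in any library (Cidec and Cfd at 0), the 4 endothelial ones to at most 2.20 CPM, and the 4 leukocyte ones to at most 7.40 CPM, with Adgre1 and Cd3e at 0. The 4 fibroblast markers summed to 149 to 1391 CPM in WT and 150 to 448 CPM in KO, with Thy1 at 0 and with Pdgfra higher (log2 1.33 to 3.06) and Dcn lower in KO. At day 0 Dcn was not called (edgeR adjusted p = 0.0516), though it was with the replicate block (0.00474). The difference of Ly6a, also in this list, is not given here. Neural markers summed to 14.6 to 540 CPM in WT and 2.29 to 84.7 CPM in KO, with Sox10 at 0. The 1 neural marker tested, Tubb3, a tubulin, was lower in KO by log2 -2.74, -3.42, -2.72, -1.54 and -2.27 on days 0, 1, 2, 4 and 6, called on every day but day 4 (edgeR adjusted p = 0.0555).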

How the data were processed

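The authors prepared TruSeq Stranded mRNA libraries and deposited raw counts of reads per gene, made with FastQC 0.11.9, STAR 2.7.9 and featureCounts 2.0.3 per the submitters' processing notes, which name GRCm38 and also GRCh38. The annotation, strand setting and handling of mates are not given in the sources used here; of 560803 values above 0, 64.4% were even, so mates may be counted separately. Symbols and positions came from GENCODE M21 (GRCm38). A column named for KO day 2 replicate 4 matched no labelled sample and was left out (1 column).

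The deposited counts entered 1 model in edgeR 4.0.16 under R 4.3.3 (with limma 3.58.1) of 10 group means, TMM, filterByExpr, robust quasi-likelihood F-tests, Benjamini-Hochberg adjustment over 13780 genes, with 29 residual degrees of freedom and a common biological coefficient of variation of 0.326. Fold changes are from the fit, and each SE uses log2 CPM (prior count 2) of the groups compared. At few counts, as for Grb10, the prior narrows the spread, and the SE is not the error of the fitted fold change. On simulated data for KO against WT at day 2 (13780 genes) genes changed 1.5 times were recovered in 2.99% of cases, those changed 2 times in 26.9% and those changed 4 times in 77.3%. The simulation changed 67, 67 and 66 genes by these factors and left 13580 unchanged. In the data 17.9% of genes were called at day 2. With so few changed genes the adjustment of p is stricter, so these rates need not hold for the data.

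Same-numbered libraries were taken as paired where every pair's deviations from the group means correlated above 0.1: KO against WT at days 0 (0.135 to 0.334), 1 (0.291 to 0.571), 2 (0.133 to 0.394) and 4 (0.126 to 0.503), not day 6 (-0.0172 to 0.185); also day 1 against day 0 in both lines and KO day 2 against day 0.

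Named genes were all 8 members, up to 4 genes per list with the smallest p over all days, every gene with a count in the loci, the 3 closest in pattern per member, and Flnc. Members and lists were chosen with earlier results of these data known. Alternatives were DESeq2 size factors, DESeq2 1.42.0, no filter, a replicate block, only the groups compared, halved counts, leaving out 2 libraries that stand apart, and each library in turn.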

Additional observations from a re-analysis of the deposited data

Results flagged for a closer look

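Grb10 differed between WT and KO in its course: the edgeR test of genotype by day over all days gave an adjusted p of 0.00178. The KO against WT difference at day 4 minus that at day 1 was -3.44 on the log2 scale for Grb10 and -1.70 for H19, a contrast chosen after the values were seen. In the group KO day 1, Grb10 replicate 4 lay far from the others at 2.65 CPM, beside 1.497, 1.55 and 1.69 CPM, with a gap of 0.831 of the range against a limit of 0.829. Of 27 groups of 4 libraries looked at for H19, Peg3 and Grb10 this was the only such library, and chance gives about 1 in 20.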

How the results depend on the processing

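With all libraries or without the 2 that stand apart, counts of member tests called stayed within 1.5 times of those reported, except genotype by day, which was 1 of 15 as reported and 2 in DESeq2. With 1 library left out, calls ranged from 2 to 5 for KO against WT by day (2 without WT day 0 replicate 1), 15 to 18 for later days, 1 to 2 for genotype by day (2 without KO day 0 replicate 5 or KO day 6 replicate 3) and 4 to 5 for any day within a line. The replicate block gave 5 of 15 calls for KO against WT, 19 of 24 for later days, where it added WT Peg3 at day 6 (0.86, adjusted p = 0.0377; the numbers do not pair there), 1 for genotype by day and 5 for any day. Shares of all genes called with the block are not given here for these tests, and the shares above for them are from the fit without it. Intervals of mean ± 1 SD separated 2 neighbouring levels in place of 1, adding Peg3 between WT and KO day 0. Of the 9 genes of like pattern, 4 were kept by Spearman's rho and 2 over 10 group means. A stricter expression limit of 5 CPM left 2 members (H19 and Peg3) in place of 3.

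Signs turned only for differences that were not called: H19 genotype by day at day 2 (0.09) was -0.06 without the 2 libraries that stand apart and -0.08 to 0.47 with 1 library left out, at day 6 -0.19 to 0.36, H19 KO against WT at day 2 -0.31 to 0.05, H19 in WT at day 1 -0.14 to 0.36 and Grb10 at day 6 -0.58 to 0.07. H19 at day 1 passed the threshold with DESeq2 (adjusted p = 0.0265), DESeq2 size factors (0.0481), halved counts (0.0478) and without the 2 libraries (0.0447). In fits of only the groups compared, KO day 1 against day 0 was not called for H19, Peg3 or Grb10 (0.151, 0.197 and 0.161), and Grb10 did not pass the filter for KO against WT at day 0 or WT days 1 and 2 against day 0. The causes were not tested. Depth limits Grb10, at 2 to 8 counts in WT libraries of days 0 and 1, and Plagl1 most. Leaving out a library assumes the rest of its group vary like the other groups.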
